A study of Mus musculus with 12 samples.

Results

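The genes described here are 68 of the 54184 genes in the deposited tables, chosen by name and not by any measured value: the semaphorins with their plexin and neuropilin receptors, the ephrins with their Eph receptors, the Slits with the Robo receptors, and the netrins with the Unc5 receptors. They comprised 20 semaphorins, 9 plexins, 2 neuropilins, 8 ephrins (5 ephrin-A and 3 ephrin-B), 14 Eph receptors (9 EphA and 5 EphB), 3 Slits, 4 Robo receptors, 4 netrins and 4 Unc5 receptors. Their transcripts were measured by bulk RNA sequencing of nephron progenitor cells (NPC), the cells of the cap mesenchyme that give rise to the nephrons, in 12 libraries with 3 in each of 4 groups. The NPC came from pooled E13.5 kidneys of CD1 females mated with Six2GFP positive or negative males, were isolated with magnetic beads, and were expanded over a few passages in NPEM, a medium that keeps them as progenitors. No group is described as a mutant, although embryos of Six2GFP positive males may have carried that transgene. All groups were sampled after 24 h. The NPEM group stayed in that medium, the DMEM group was a control in DMEM, the CHIR group received 3.5 µM CHIR99021 in DMEM, and the YN1 group received 20 µM YN1 in DMEM. CHIR inhibits the kinase GSK3 and thereby activates canonical WNT signaling, and YN1 inhibits PFKFB3, a regulator of glycolysis. The medium of the drugs held FGF2 and serum replacement, whereas the composition of the DMEM control is not described in the sources used here, so the drug and the rest of the medium cannot be told apart in comparisons with that control.

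Guidance cues are ligands, secreted or held on a membrane, that tell a neighbouring cell where to go or which cells to adhere to. Semaphorins signal through plexins, with neuropilins as co-receptors for most secreted class 3 members, ephrins are bound to the cell surface and signal in both directions with Eph receptor tyrosine kinases, Slits bind Robo receptors, and netrins bind Dcc, neogenin and the Unc5 family. In the mouse kidney, Slit2 and Robo2 restrict where the ureteric bud grows out, and class 3 semaphorins, ephrin-B2 and netrin-1 are known from work on renal vessels and ureteric branching.

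Levels are in TPM, a scale of transcript abundance relative to the library that keeps no read numbers, and sequencing depth was therefore not known. Library sums ran from 969477 to 973162 TPM, with 13754 to 14569 genes at 1 TPM or more. The 10 progenitor markers were above 0 in every library, with Meox1 at 0.192 to 0.942 TPM in CHIR. They summed to 533 to 872 TPM in NPEM and 174 to 554 TPM in CHIR. Six2 was at 74.1 to 170 TPM in NPEM and 27.2 to 125 TPM in CHIR, and Cited1 at 22.3 to 90.8 TPM in NPEM and 1.11 to 6.13 TPM in CHIR. By mean, Wt1 (50.9 TPM in NPEM and 87.7 TPM in CHIR) and Pax2 (2.30 and 6.12 TPM) lay the other way. Wnt4, a marker of NPC entering differentiation, was at 0.306 to 0.799 TPM in NPEM, 1.6 to 13 TPM in DMEM, 39.1 to 176 TPM in CHIR and 1.36 to 18.0 TPM in YN1. Markers of other cell types were measured in the same libraries. The 7 stroma markers summed to 637 to 2046 TPM in NPEM, 1130 to 3600 TPM in DMEM, 806 to 3032 TPM in CHIR and 1069 to 3192 TPM in YN1, while the stroma regulator Foxd1 stayed at or below 4.20 TPM. The 4 smooth muscle markers in the files summed to 49.3 to 112 TPM in NPEM, 511 to 1951 TPM in DMEM, 855 to 3013 TPM in CHIR and 565 to 3558 TPM in YN1. Of the 6 endothelium markers, 4 (Pecam1, Cdh5, Tek, Tie1) were below 1 TPM on average, and Emcn made up most of the sum of 14.9 to 32.2 TPM in CHIR and 76.9 to 240 TPM in the other groups. The immune genes Tyrobp and Adgre1 were at 0 in all 12 libraries. The part of these markers in the results was not tested.

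Libraries with the same replicate number deviated together from their group means, so the numbers were taken as pairing the libraries across groups. In each group the library of replicate 2 had the lowest summed stroma markers (637 TPM in NPEM, 1130 TPM in DMEM, 806 TPM in CHIR and 1069 TPM in YN1) and the highest summed progenitor markers (872, 770, 554 and 747 TPM). Among the 54 guidance genes that reached 1 TPM in 3 or more libraries, 20 (37.0%) were highest in the same replicate number in all 4 groups, against 31.4% of 15680 genes. Replicate 1 was highest for 10 of them, including Nrp2, Sema3a and Epha3, replicate 2 for 6 (Efna4, Ephb1, Plxna4, Robo2, Sema3f and Slit2), and replicate 3 for 4 (Ntn1, Plxnb2, Sema3g and Sema4a).

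Most of the guidance genes were expressed in the NPC cultures. Which cells of the cultures held the transcripts was not tested. Of the 68 genes, 41 reached 1 TPM in all 12 libraries, 52 had a mean of at least 1 TPM, 36 had a mean of at least 10 TPM, and 11 reached 1 TPM in no library. By mean over the 12 libraries the leading member of each family was Robo2 (241 TPM), the plexin Plxnb2 (156 TPM), the neuropilin Nrp1 (126 TPM), Efnb1 among the ephrin-B genes (79.7 TPM), Ephb4 among the EphB genes (68.6 TPM), the semaphorin Sema3f (67.5 TPM), Unc5b (63.0 TPM), Efna4 among the ephrin-A genes (38.6 TPM), Slit2 (31.5 TPM), Epha4 among the EphA genes (22.6 TPM) and Ntn3 (11.5 TPM). The 15 members that passed the filter on low values in no comparison were Epha5, Epha6, Epha8, Epha10, Ntn5, Plxnb3, Plxnc1, Robo3, Robo4, Sema3e, Sema4f, Sema5b, Slit1, Unc5a and Unc5d. The summed level of all 68 genes was 1793 ± 195 TPM in NPEM, 1798 ± 276 TPM in DMEM, 1224 ± 84.7 TPM in CHIR and 1724 ± 278 TPM in YN1 (SD, n = 3). Each CHIR library (1179, 1322 and 1171 TPM) lay below every library of the other groups, the lowest of which was YN1 replicate 1 at 1457 TPM. In bulk RNA, fewer cells of a type and less RNA per cell cannot be told apart.

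**Figure D1:**
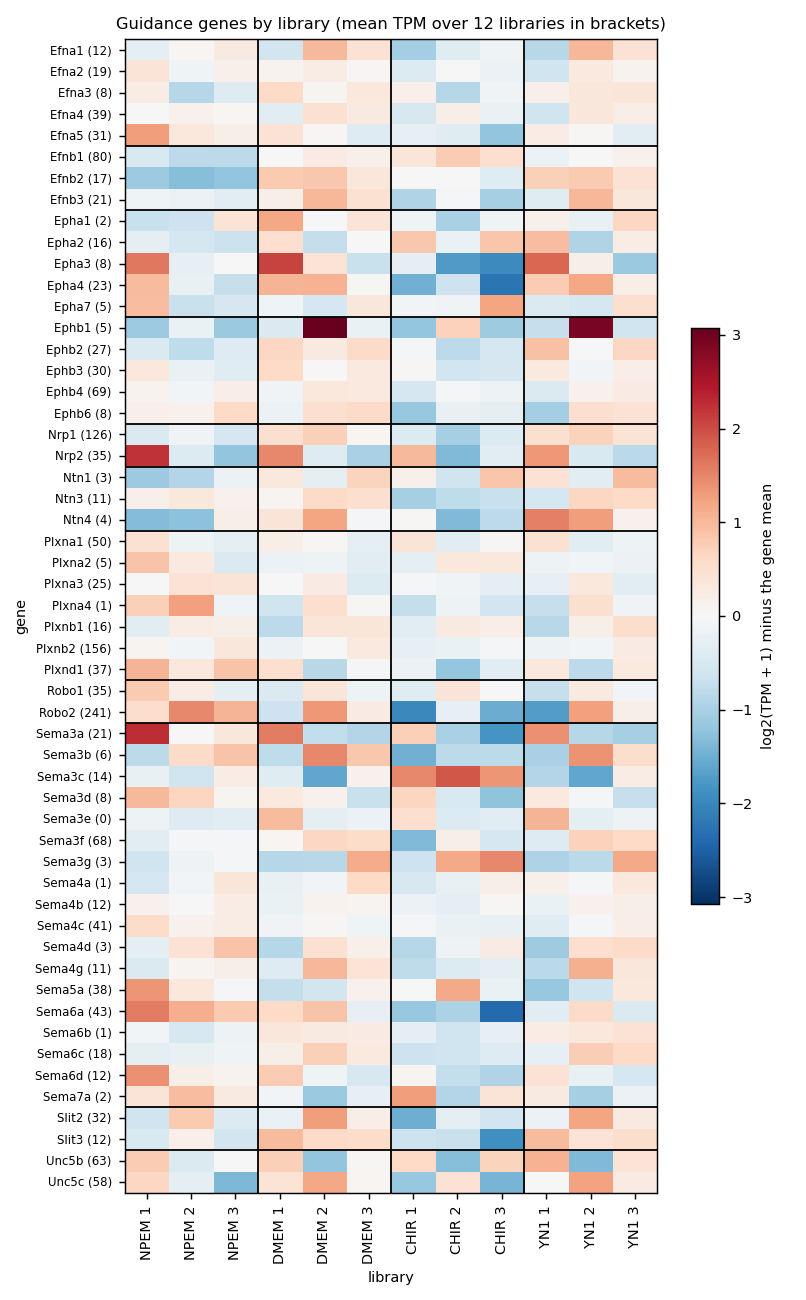
Each row is a guidance gene that reached 1 TPM in 3 or more of the 12 libraries, and the colour is log2(TPM + 1) minus the mean of that gene, with families separated by horizontal lines and groups by vertical lines. The CHIR columns hold most of the blue rows, Sema3c stands out as red there, and genes such as Nrp2 and Ephb1 follow a replicate number.

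The proximal promoters of a pair of genes that moved in opposite ways under CHIR against the DMEM control are shown here, because CHIR activates WNT signaling and the nuclear effectors of that pathway, TCF and LEF, bind the core CTTTG followed by an A or a T and by a final A or T. The 4 words searched were CTTTGAA, its variant with a final T (written CTTTGAT), the word with T before a final A (CTTTGTA), and the one that ends on a pair of T (CTTTGTT). The windows run from 250 bases before to 50 bases after the start of the gene in RefSeq on GRCm38.p6, are written 5′ to 3′ on the strand of the gene, and have any such match on either strand in capitals. Sema3c lies on the plus strand (window chr5:17574566-17574865) and Efnb2 on the minus strand (window chr8:8661193-8661492).
Sema3c: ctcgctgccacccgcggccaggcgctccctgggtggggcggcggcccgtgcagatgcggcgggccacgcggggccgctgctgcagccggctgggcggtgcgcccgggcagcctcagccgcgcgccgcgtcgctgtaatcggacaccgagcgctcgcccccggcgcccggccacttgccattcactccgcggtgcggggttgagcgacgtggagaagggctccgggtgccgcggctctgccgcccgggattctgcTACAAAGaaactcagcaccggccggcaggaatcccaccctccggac
Efnb2: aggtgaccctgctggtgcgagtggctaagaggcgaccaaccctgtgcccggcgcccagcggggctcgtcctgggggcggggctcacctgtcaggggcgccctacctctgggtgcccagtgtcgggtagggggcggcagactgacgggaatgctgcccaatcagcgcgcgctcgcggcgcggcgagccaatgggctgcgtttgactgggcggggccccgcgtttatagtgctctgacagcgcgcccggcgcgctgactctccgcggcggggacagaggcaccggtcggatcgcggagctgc
The Sema3c window held 1 match, which starts 5 bases into the transcript and reads CTTTGTA on the opposite strand, and the Efnb2 window held none. A window was found for 59 of the 68 genes, and 8 of their 75 windows (10.7%) held at least 1 match, against 5544 of 32851 windows (16.9%) over all genes. The other members with a match were Efna4, Epha2, Nrp2, Plxnb1, Sema3d, Sema3e and Sema6d. In CHIR against NPEM, Epha2 had a LogFC of 0.99 and Sema6d of -1.10, so genes with a match lay on both sides of 0. Among the genes described here without a match were Slit2, Slit3, Robo2, Epha4, Nrp1, Efnb1 and Efna5. A match in these letters is a description of the sequence and not a bound site.

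Each of 6 comparisons was fitted with limma over its 6 libraries and all genes that reached 1 TPM in 3 or more of these. LogFC is the difference between group means of log2(TPM + 1), which understates the change of low genes, and it stands with its standard error (SE). A gene passed the adjusted test at a Benjamini-Hochberg adjusted p under 0.05 over all genes tested, and it passed the thresholds of the study at a LogFC beyond 0.6 with an unadjusted p under 0.05. Values from the fit with the replicate number as a block are named as blocked. The words rose and fell are used here for genes that passed the adjusted test, with or without the block. Blocked calls rest on 3 pairs of libraries. All of those in CHIR against DMEM were lost when replicate 3 was left out of both groups, where 0 of all 13344 genes tested passed. Of the 68 genes, 53 were tested in at least 1 comparison and 49 in all 6. The thresholds of the study were passed by 28 in at least 1 comparison. The share of all genes that did so in at least 1 was not counted, so the 28 cannot be set against it.

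Among the ligands of the Eph family, the 3 ephrin-B genes, which encode transmembrane ligands, were lower in NPEM than in DMEM, without overlap. Efnb2, on chromosome 8 at 8617235 to 8661242 (GRCm38), was at 6.36, 5.47 and 5.89 TPM in NPEM, 27.2, 27.2 and 19.5 TPM in DMEM, 15.3, 15.1 and 11.4 TPM in CHIR, and 25.8, 26.9 and 20.7 TPM in YN1. The NPEM, CHIR and DMEM libraries formed separate ranges in that order, and YN1 overlapped DMEM only. Efnb2 rose in DMEM against NPEM (LogFC = 1.88, SE 0.21, adjusted p = 0.0264 by limma) and in YN1 against NPEM (LogFC = 1.87, SE 0.20, adjusted p = 0.0371), 4.17-fold and 4.14-fold by the ratio of mean TPM. Both comparisons share the NPEM libraries. Neither call held when any 1 of the 6 libraries was left out (adjusted p = 0.0628 to 0.124 for DMEM and 0.0589 to 0.183 for YN1) or without the filter on low values (0.121 and 0.193). Against DMEM, Efnb2 fell in CHIR in the blocked fit (LogFC = -0.78, SE 0.21, adjusted p = 0.134, blocked 0.0298).

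Efnb1, on the X chromosome at 99136061 to 99149022, was at 54.3, 43.0 and 42.6 TPM in NPEM, 76.8, 90.5 and 84.6 TPM in DMEM, 99.0, 131 and 109 TPM in CHIR, and 66.2, 75.5 and 83.2 TPM in YN1. Its CHIR libraries lay above all others, the reverse of the position of CHIR against DMEM for Efnb2. Efnb1 rose in CHIR against NPEM (LogFC = 1.26, SE 0.17, adjusted p = 0.0403 by limma), 2.43-fold by the ratio of means. The call was lost without any 1 library other than CHIR replicate 2 (adjusted p = 0.0669 to 0.192, and 0.0429 without CHIR replicate 2), without the trend in the prior variance (0.0659) and without the filter (0.150). In the blocked fit Efnb1 also rose in DMEM against NPEM (LogFC = 0.84, SE 0.15, adjusted p = 0.0683, blocked 0.0399) and in CHIR against DMEM (LogFC = 0.42, SE 0.15, adjusted p = 0.193, blocked 0.0440). Efnb3 was at 22.2, 40.7 and 27.3 TPM in DMEM and 9.75, 18.5 and 9.10 TPM in CHIR, without overlap, and it fell in CHIR in the blocked fit (LogFC = -1.23, SE 0.34, adjusted p = 0.133, blocked 0.0221).

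The 5 ephrin-A genes encode ligands held by a lipid anchor. Efna5 was at 70.9, 35.8 and 32.6 TPM in NPEM, 38.7, 29.3 and 21.5 TPM in DMEM, 23.7, 21.7 and 11.6 TPM in CHIR, and 33.7, 29.1 and 22.5 TPM in YN1. CHIR lay below NPEM without overlap (LogFC = -1.22, SE 0.38, adjusted p = 0.267, blocked 0.0663) and overlapped DMEM, against which Efna5 fell in the blocked fit (LogFC = -0.64, SE 0.33, adjusted p = 0.333, blocked 0.0448). All 5 ephrin-A genes had a LogFC below 0 in CHIR against DMEM, with a median of -0.61. Of all genes tested there, 65.4% lay below 0, with a median of -0.15. Past the thresholds of the study, 0 of the 5 were lower without the block and 3 (Efna1, Efna3 and Efna5) with it. Of the 14313 genes tested, 1545 were lower without the block and 2028 with it. Efna1, Efna3 and Efna4 are neighbours on chromosome 3.

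Of the Eph receptors, 3 of the 5 EphA genes tested and all 5 EphB genes had a LogFC below 0 in CHIR against DMEM. Of all genes tested, 65.4% did. Epha4, a receptor that binds both ephrin classes, was at 36.4, 15.2 and 10.5 TPM in NPEM, 38.2, 38.8 and 18.3 TPM in DMEM, 5.81, 11.1 and 2.99 TPM in CHIR, and 31.4, 41.8 and 20.8 TPM in YN1. The CHIR libraries lay below all DMEM and YN1 libraries and overlapped NPEM. Epha4 fell in CHIR against DMEM in the blocked fit (LogFC = -2.17, SE 0.47, adjusted p = 0.0969, blocked 0.0189) and was higher in YN1 than in CHIR (LogFC = 2.17, SE 0.45, adjusted p = 0.178, blocked 0.0269), with mean levels 4.78-fold and 4.72-fold apart. Both values rest on the same CHIR libraries. Epha3, an EphA receptor that prefers ephrin-A ligands, was at 18.8, 4.46 and 5.57 TPM in NPEM, 26.2, 7.60 and 3.03 TPM in DMEM and 4.37, 0.948 and 0.664 TPM in CHIR. Replicate 1 was highest in every group, and CHIR overlapped DMEM although each CHIR library was lower than the DMEM library of its number. Epha3 fell in CHIR in the blocked fit against DMEM (LogFC = -1.92, SE 0.77, adjusted p = 0.242, blocked 0.0261) and, narrowly without overlap, against NPEM (LogFC = -1.78, SE 0.63, adjusted p = 0.335, blocked 0.0365). Epha2, at 8.65 to 11.8 TPM in NPEM and 12.3 to 26.8 TPM in CHIR, lay the other way (LogFC = 0.99, SE 0.32, unadjusted p = 0.0190 and adjusted p = 0.297 by limma).

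Among the EphB receptors, whose main ligands are the ephrin-B proteins, Ephb2 was at 18.0, 14.2 and 18.5 TPM in NPEM, 39.6, 30.2 and 37.8 TPM in DMEM, 23.8, 13.9 and 16.7 TPM in CHIR, and 47.4, 25.1 and 39.4 TPM in YN1. DMEM and YN1 lay above both NPEM and CHIR without overlap, as they did for Slit3 and Nrp1. Ephb2 rose in DMEM against NPEM in the blocked fit (LogFC = 1.04, SE 0.18, adjusted p = 0.0714, blocked 0.0224) and fell in CHIR against DMEM (LogFC = -0.97, SE 0.23, adjusted p = 0.113, blocked 0.0263). Ephb3, Ephb4 and Ephb6, the last a receptor without kinase activity, also fell in CHIR against DMEM in the blocked fit, with LogFC of -0.66, -0.39 and -0.87. Of these, Ephb3 and Ephb4 overlapped between the groups. Ephb1 differed between replicate numbers within groups, at 25.2 TPM in DMEM replicate 2 and 22.6 TPM in YN1 replicate 2 against 0.886 to 1.69 TPM in the other libraries of those groups, and 4.04 TPM in CHIR replicate 2.

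**Figure D2:**
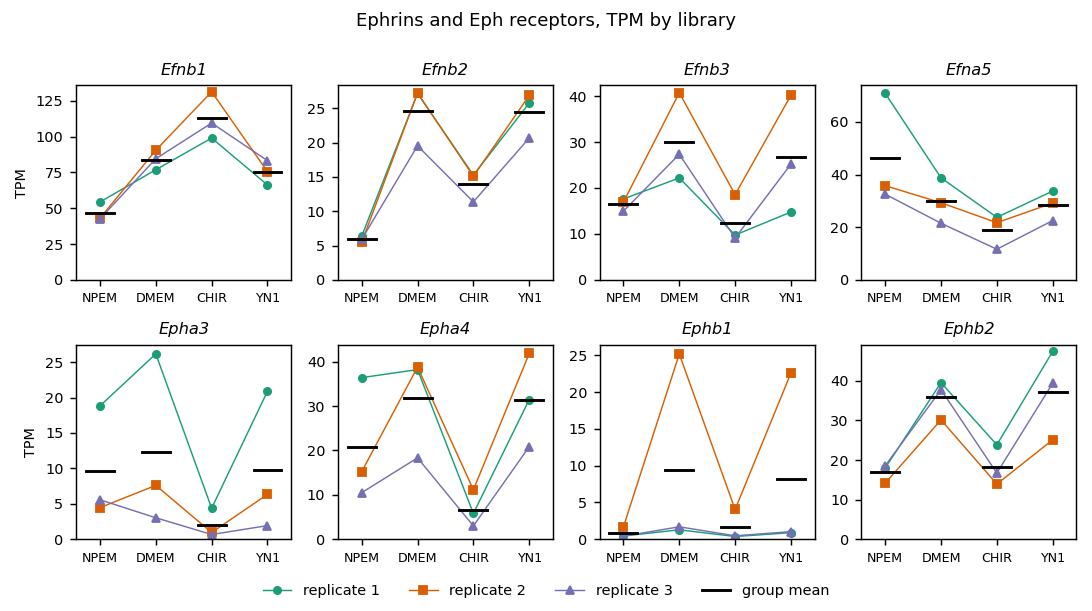
TPM of 8 ephrin and Eph receptor genes in each library, by group, with lines joining libraries of the same replicate number and black bars for group means (n = 3). Efnb2 was lowest in NPEM (5.47 to 6.36 TPM) and Epha4 was at 2.99 to 11.1 TPM in CHIR, while Ephb1 was high in replicate 2 of DMEM and YN1.

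Among the semaphorins, Sema3c and Sema6a held the largest differences, in opposite directions. Sema3c, a secreted class 3 semaphorin on chromosome 5 at 17574816 to 17730268, was at 8.66, 6.52 and 12.3 TPM in NPEM, 7.74, 2.75 and 11.5 TPM in DMEM, 30.8, 42.2 and 28.2 TPM in CHIR, and 5.09, 2.77 and 12.3 TPM in YN1. Each CHIR library lay above the highest library of any other group. The mean was 4.61-fold that of DMEM and 3.68-fold that of NPEM. Sema3c rose in CHIR against DMEM in the blocked fit (LogFC = 2.21, SE 0.44, adjusted p = 0.0881, blocked 0.0440), and against NPEM it missed the threshold in both fits (LogFC = 1.79, SE 0.27, adjusted p = 0.0553, blocked 0.0622). Without the block it was the 1 member higher in CHIR than in DMEM past the thresholds of the study, and with the block Sema7a passed them too (LogFC = 0.75, blocked unadjusted p = 0.0486).

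Sema6a, a transmembrane semaphorin that binds class A plexins, was at 101, 74.0 and 58.9 TPM in NPEM, 51.8, 61.6 and 27.7 TPM in DMEM, 14.2, 16.3 and 5.51 TPM in CHIR, and 26.0, 50.6 and 24.3 TPM in YN1. CHIR lay below every other library, and YN1 lay below NPEM but overlapped DMEM. Sema6a fell in CHIR against NPEM in the blocked fit (LogFC = -2.69, SE 0.40, adjusted p = 0.0528, blocked 0.0243), with a mean 6.49-fold higher in NPEM, and against DMEM (LogFC = -1.93, SE 0.45, adjusted p = 0.111, blocked 0.0124). For YN1 against NPEM the LogFC was -1.23 (SE 0.32, unadjusted p = 0.00679, adjusted p = 0.168 by limma).

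Sema3f, the most abundant semaphorin, was at 49.0, 60.4 and 60.2 TPM in NPEM, 65.2, 97.4 and 93.7 TPM in DMEM, and 23.9, 70.8 and 43.5 TPM in CHIR. DMEM lay above NPEM without overlap and CHIR overlapped both. In the blocked fit Sema3f rose in DMEM against NPEM (LogFC = 0.57, SE 0.19, adjusted p = 0.235, blocked 0.0400) and fell in CHIR against DMEM (LogFC = -0.98, SE 0.38, adjusted p = 0.231, blocked 0.0429). Sema3b, also secreted, and the transmembrane Sema6c fell likewise in CHIR against DMEM, with LogFC of -1.55 and -0.95 and blocked adjusted p of 0.0492 and 0.0383. Sema3a, a repulsive cue that signals through Nrp1, was at 71.4, 14.1 and 18.1 TPM in NPEM and 43.4, 7.74 and 6.96 TPM in DMEM. Its libraries of replicate 1 were the highest of each group, and with that taken into account Sema3a fell in DMEM against NPEM (LogFC = -0.92, SE 0.83, adjusted p = 0.658, blocked 0.0430). In CHIR against NPEM the LogFC of Sema3b was -1.25 (SE 0.48, unadjusted p = 0.0370) and that of the transmembrane Sema6d -1.10 (SE 0.44, unadjusted p = 0.0397). Sema5a, a transmembrane semaphorin with thrombospondin repeats, was at 87.3, 42.5 and 32.8 TPM in NPEM and 19.6, 22.5 and 36.7 TPM in DMEM (LogFC = -0.94, SE 0.40, unadjusted p = 0.0493, and 0.0772 with the block). Sema6b did not exceed 1.63 TPM in any library and was lower in CHIR than in DMEM (LogFC = -0.67, SE 0.25, unadjusted p = 0.0296). Sema7a, a semaphorin held by a lipid anchor, was at 2.18 to 4.09 TPM in NPEM and 0.190 to 1.48 TPM in DMEM (LogFC = -1.03, SE 0.37, unadjusted p = 0.0274, adjusted p = 0.260).

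Of the receptors for semaphorins, Nrp1 was higher in DMEM and YN1 than in NPEM and CHIR. Nrp1, which also binds forms of VEGF, was at 86.7, 110 and 82.5 TPM in NPEM, 166, 198 and 123 TPM in DMEM, 87.8, 57.8 and 87.8 TPM in CHIR, and 166, 192 and 159 TPM in YN1. The DMEM and YN1 libraries lay above all NPEM and CHIR libraries. Nrp1 rose in the blocked fit in DMEM against NPEM (LogFC = 0.78, SE 0.20, adjusted p = 0.146, blocked 0.0284) and in YN1 against NPEM (LogFC = 0.89, SE 0.16, adjusted p = 0.0903, blocked 0.0462). In CHIR against DMEM it missed the adjusted threshold in both fits (LogFC = -1.05, SE 0.24, adjusted p = 0.105, blocked 0.0559). Nrp2, the co-receptor preferred by Sema3f, was at 120, 71.1, 50.6 and 63.6 TPM in replicate 1 of NPEM, DMEM, CHIR and YN1 and at 8.97 to 19.1 TPM in the other 8 libraries, so its level followed the replicate number.

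The plexins are the signaling receptors themselves. Plxnb2, the most abundant, ranged from 130 to 196 TPM over the 12 libraries, and its LogFC in CHIR against DMEM was -0.20 (SE 0.15, unadjusted p = 0.229). None of the 6 plexins tested passed the thresholds of the study in CHIR against DMEM, where their median LogFC was -0.02. Of all genes, 10.8% were lower and 2.61% higher past those thresholds, with a median of -0.15. Against NPEM, all 7 plexins tested had a LogFC below 0 in DMEM (median -0.34) and in YN1 (median -0.38). Of all genes, 39.7% and 39.4% lay below 0 in these comparisons. Plxna4 spanned 0.187 to 3.81 TPM over the 12 libraries. Plxnd1, a receptor for Sema3e, was the 1 plexin past the thresholds of the study in any comparison. It was at 70.7, 42.4 and 62.5 TPM in NPEM, 48.2, 18.1 and 32.6 TPM in DMEM, 29.5, 14.2 and 26.5 TPM in CHIR, and 42.2, 18.9 and 41.8 TPM in YN1. CHIR lay below NPEM without overlap. Plxnd1 fell in the blocked fit in CHIR (LogFC = -1.32, SE 0.32, adjusted p = 0.160, blocked 0.0245) and in DMEM (LogFC = -0.88, SE 0.36, adjusted p = 0.313, blocked 0.0406) against NPEM.

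Both expressed Slit ligands had their lowest mean in CHIR. Slit3, on chromosome 11 at 35121456 to 35708507, was at 7.22, 11.7 and 6.63 TPM in NPEM, 21.3, 16.0 and 15.9 TPM in DMEM, 6.38, 6.13 and 2.1 TPM in CHIR, and 21.5, 14.2 and 15.6 TPM in YN1. The 4 groups fell into a low pair (CHIR, then NPEM) and a high, overlapping pair (DMEM and YN1). Slit3 fell in CHIR against DMEM in the blocked fit (LogFC = -1.77, SE 0.37, adjusted p = 0.0941, blocked 0.0297), and in DMEM against NPEM it passed the thresholds of the study (LogFC = 1.01, SE 0.26, unadjusted p = 0.00653, adjusted p = 0.146, blocked 0.0687). Slit2, on chromosome 5 at 47981291 to 48307735, was at 17.4, 48.0 and 20.1 TPM in NPEM, 23.4, 67.8 and 31.3 TPM in DMEM, 9.0, 22.4 and 17.6 TPM in CHIR, and 23.7, 64.6 and 33.1 TPM in YN1. Replicate 2 was highest in each group, yet CHIR lay below DMEM and YN1 without overlap. CHIR overlapped NPEM, against which the LogFC of Slit2 was -0.71 (SE 0.46, adjusted p = 0.630, blocked 0.179). In the blocked fit Slit2 fell in CHIR against DMEM (LogFC = -1.21, SE 0.47, adjusted p = 0.226, blocked 0.0291) and was higher in YN1 than in CHIR (LogFC = 1.22, SE 0.45, adjusted p = 0.286, blocked 0.0456).

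Robo2, the most abundant guidance gene, lies on chromosome 16 at 73891976 to 75447443. It was at 263, 508 and 376 TPM in NPEM, 116, 458 and 215 TPM in DMEM, 45.3, 151 and 62.2 TPM in CHIR, and 54.0, 436 and 203 TPM in YN1. CHIR lay below NPEM without overlap, DMEM, YN1 and CHIR overlapped, and in each replicate number the CHIR library was the lowest of the 4. Robo2 fell in CHIR in the blocked fit against NPEM (LogFC = -2.28, SE 0.45, adjusted p = 0.109, blocked 0.0237) and against DMEM (LogFC = -1.57, SE 0.60, adjusted p = 0.224, blocked 0.0135). Replicate 2, highest for Robo2 in each group, was also the number with the lowest stroma and highest progenitor markers. Robo1, which binds the same ligands, had a LogFC of 0.09 (SE 0.28, unadjusted p = 0.765) in CHIR against DMEM, with 24.4 to 43.8 TPM in DMEM and 26.0 to 45.1 TPM in CHIR.

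Netrin transcripts were low. Ntn3 was at 12, 13.4 and 11.6 TPM in NPEM, 11.3, 16.3 and 15.7 TPM in DMEM, 4.68, 5.77 and 6.18 TPM in CHIR, and 7.01, 17.0 and 16.7 TPM in YN1. All CHIR libraries lay below all others. Ntn3 fell in CHIR against DMEM in the blocked fit (LogFC = -1.23, SE 0.23, adjusted p = 0.0817, blocked 0.0230). An exon of another gene, BC028777, overlaps it by 139 bases on the opposite strand in GENCODE, and the libraries were not strand-specific, so reads of the overlap cannot be assigned. The same holds for Efna3 (Gm15998, 344 bases), Efna4 (4731419I09Rik, 168 bases), Ephb1 (Gm17708, 152 bases), Ephb4 (Zan, 33 bases), Plxna4 (Gm13851, 110 bases) and Plxnb1 (Gm7628, 210 bases). Ntn4, a netrin of basement membranes, ranged from 0.447 to 9.72 TPM and was at 9.72, 8.03 and 3.07 TPM in YN1 against 2.77, 0.447 and 1.12 TPM in CHIR (LogFC = 1.70, SE 0.50, adjusted p = 0.235, blocked 0.0702). Ntn1, the best known chemoattractant of the family, was at 0.507, 0.774 and 1.89 TPM in NPEM and 3.13, 1.66 and 4.33 TPM in DMEM (LogFC = 0.97, SE 0.38, unadjusted p = 0.0384, adjusted p = 0.290). Of the Unc5 receptors, which mediate repulsion by netrins, Unc5c was at 65.7, 114 and 51.6 TPM in DMEM and 21.5, 66.9 and 17.4 TPM in CHIR, and it fell in the blocked fit (LogFC = -1.28, SE 0.53, adjusted p = 0.254, blocked 0.0291). Unc5b, at 20.4 to 115 TPM, was lowest in replicate 2 of every group and had a LogFC of 0.14 (SE 0.68, unadjusted p = 0.841) in CHIR against DMEM.

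**Figure D3:**
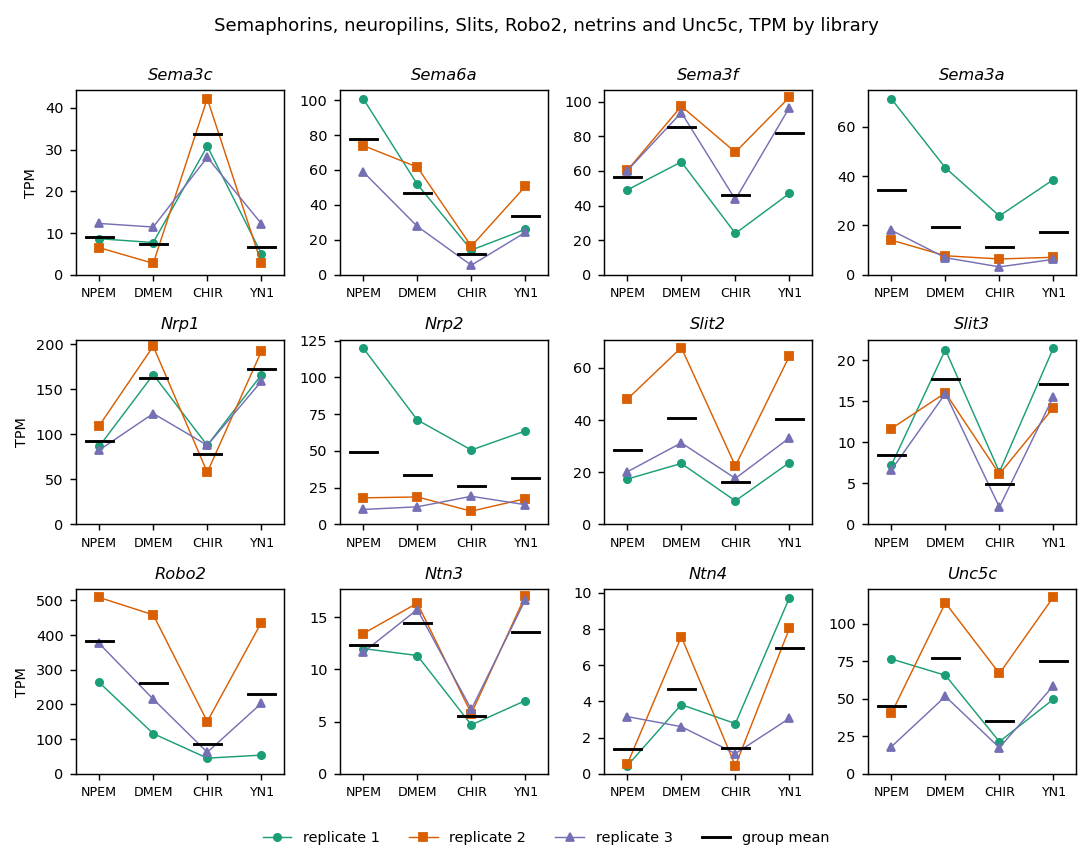
TPM of 12 semaphorin, neuropilin, Slit, Robo, netrin and Unc5 genes in each library, by group, with lines joining libraries of the same replicate number and black bars for group means (n = 3). Sema3c peaked in CHIR at 28.2 to 42.2 TPM, Sema6a was lowest there at 5.51 to 16.3 TPM, and Nrp2 and Sema3a followed replicate 1.

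Over all families, 40 of 52 guidance genes had a LogFC below 0 in CHIR against DMEM, as did 65.4% of the 14313 genes tested. Of the 52, 19 were lower and 1 higher past the thresholds of the study, against 10.8% and 2.61% of the 14313 genes tested. Their median LogFC was -0.60, and that of all genes was -0.15. Under quantile normalization these medians were -0.33 and 0.00, and 8 members were lower and 1 higher, against 816 and 705 of 14313 genes. In 33 of the 52 members (63.5%) the CHIR library was the lower in all 3 replicate numbers, against 41.9% of all genes. By the adjusted test 0 members passed without the block, where 36 genes (0.252%) did. An unadjusted p under 0.05 was reached by 21 members, against 2754 of 14313 genes. With the block 18 fell and 2 rose, against 9.44% and 3.36% of all genes. That count of 20 became 5 without replicate 1, 19 without replicate 2 and 0 without replicate 3. Among all genes, 429 of 13361, 1383 of 13368 and 0 of 13344 passed in these fits. The thresholds of the study were passed by 12 members without DMEM replicate 2, 13 without DMEM replicate 3 and 11 without CHIR replicate 3. Of all genes, 1227 of 13823, 1791 of 13817 and 1467 of 13991 passed them there. In the same libraries the summed differentiation markers (76.7 to 277 TPM in CHIR and 32.0 to 84.9 TPM in DMEM) overlapped, with CHIR higher in each replicate number. Wnt4 had a mean of 100 TPM in CHIR, and Pax8 lay the other way (11.6 TPM in CHIR and 13.4 TPM in DMEM). The 1 endothelium marker tested, Emcn, was at 13.9 to 31.8 TPM in CHIR and 98.1 to 235 TPM in DMEM. Cdh5, Tek and Tie1, all below 1 TPM, had higher means in CHIR. The part of these markers in the result was not tested.

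**Figure D4:**
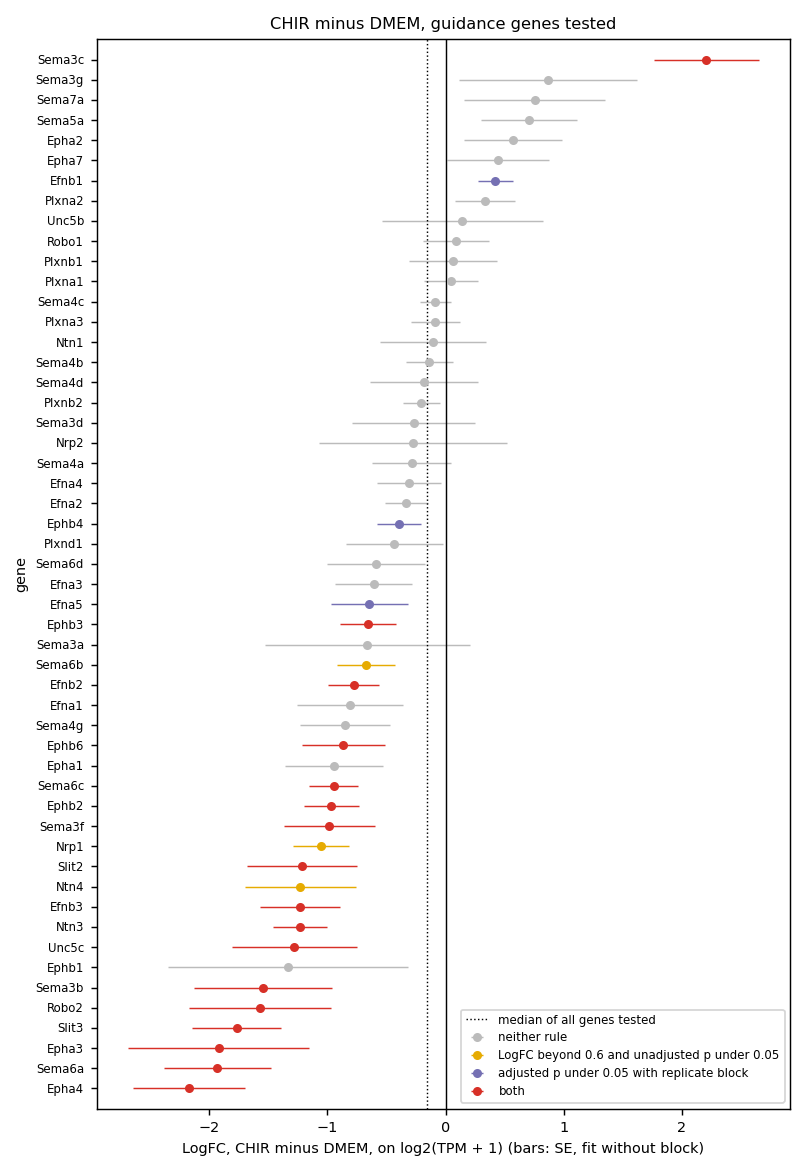
LogFC of the 52 guidance genes tested in CHIR minus DMEM, with SE as bars, coloured by the rules they passed, and the median of all genes tested as a dotted line. Values run from -2.17 (Epha4) to 2.21 (Sema3c), and 40 of the 52 lie below 0, against 65.4% of all genes tested.

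Compared with NPEM, the same CHIR libraries had 10 members lower and 4 higher (Efnb1, Efnb2, Epha2 and Sema3c) of 50 tested past the thresholds of the study, against 5.51% and 3.41% of all genes, with a median LogFC of -0.31 for the members and -0.06 for all genes. The count of 14 was 9 without CHIR replicate 3, where 873 of 13675 genes passed. By the adjusted test 1 member passed, Efnb1, where 0.378% of all genes did, with 3 members without CHIR replicate 2 and, without any 1 other library, 0. The counts over all genes were 192 without CHIR replicate 2 and 2 to 27 without any 1 other library. With the block 4 fell and 1 rose, against 0.962% and 0.698% of all genes. That blocked count was 0 without replicate 1, 6 without replicate 2 and 0 without replicate 3, against 25 of 13180, 283 of 13170 and 2 of 13153 genes. The smooth muscle markers differed between these groups as given above, and their part in the result was not tested.

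In DMEM against NPEM, 9 of 53 members were higher and 3 lower past the thresholds of the study, against 7.68% and 2.94% of all genes, and the median LogFC was 0.08 for the members and 0.09 for all genes. Under quantile normalization 6 were higher and 5 lower, against 694 and 655 of 14343 genes. The 9 were the 3 ephrin-B genes, Ephb2, Nrp1, Ntn1, Ntn4, Sema6c and Slit3, and the 3 were Plxnd1, Sema5a and Sema7a. With the block Ntn4 (unadjusted p = 0.0574) and Sema5a (0.0772) no longer passed, and 11 members were higher and 6 lower, against 1504 and 615 of 14343 genes. By the adjusted test only Efnb2 passed, where 0.446% of all genes did, and 0 members did without any 1 of the 6 libraries, where 2 to 29 genes did. With the block 5 rose and 2 fell, against 4.32% and 2.19% of all genes. That count of 7 became 8 without replicate 1, 0 without replicate 2 and 4 without replicate 3. Among all genes, 708 of 13477, 52 of 13415 and 431 of 13363 passed in these fits.

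For YN1, 7 of 53 members were higher and 1 lower than in NPEM past the thresholds of the study, against 7.26% and 3.27% of all genes. The 7 were Efnb1, Efnb2, Ephb2, Nrp1, Ntn1, Ntn4 and Slit3, and the 1 was Sema6a. With the block 7 were higher and 7 lower, under quantile normalization 6 and 6, and without YN1 replicate 1 10 and 5. Of all 14323 genes, 1383 and 657 were so with the block and 728 and 677 under quantile normalization. Without YN1 replicate 1 the counts were 1131 and 496 of 13896 genes. By the adjusted test only Efnb2 passed, where 0.23% of all genes did, and 0 members did without any 1 of the 6 libraries, where 1 to 28 genes did. With the block Efnb2 and Nrp1 rose and 0 fell, against 0.489% and 0.265% of all genes. That count of 2 was 3 without replicate 1, 3 without replicate 2 and 0 without replicate 3. Among all genes, 166 of 13470, 279 of 13369 and 29 of 13318 passed in these fits. Compared with DMEM, 0 of 52 members passed either rule in YN1, with or without the block. Without it, 0.283% of all genes were higher and 0.172% lower past the thresholds of the study, and 0.0% passed the adjusted test in limma. With it, 105 and 80 of 14500 genes passed those thresholds, and 0 the adjusted test. In limma 0 members had an unadjusted p under 0.05 without the block and 2 with it, against 75 and 1074 genes. The LogFC of the members ranged from -0.48 (Sema6a) to 0.47 (Ntn4), with a median of -0.05 and of 0.00 for all genes. These values do not show that YN1 and DMEM act alike on the guidance genes, and the drug and its medium cannot be told apart in the comparison with NPEM.

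Between the drugs, 12 of 52 members were higher and 1, Sema3c, lower in YN1 than in CHIR past the thresholds of the study, against 8.75% and 2.0% of all genes, with median LogFC of 0.50 and 0.16. Under quantile normalization 7 were higher and 2 lower, against 595 and 563 of 14269 genes, with medians of 0.26 and 0.00. By the adjusted test 0 members passed without the block, where 0.00701% of all genes did. An unadjusted p under 0.05 was reached by 14 members, against 2216 of 14269 genes. With the block Epha4, Ephb2 and Slit2 were higher and 0 lower, against 1.11% and 0.456% of all genes. That count of 3 was 9 without replicate 1, 6 without replicate 2 and 6 without replicate 3, against 593 of 13367, 272 of 13356 and 182 of 13256 genes. The comparison rests on the same CHIR libraries as that with DMEM.

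**Figure D5:**
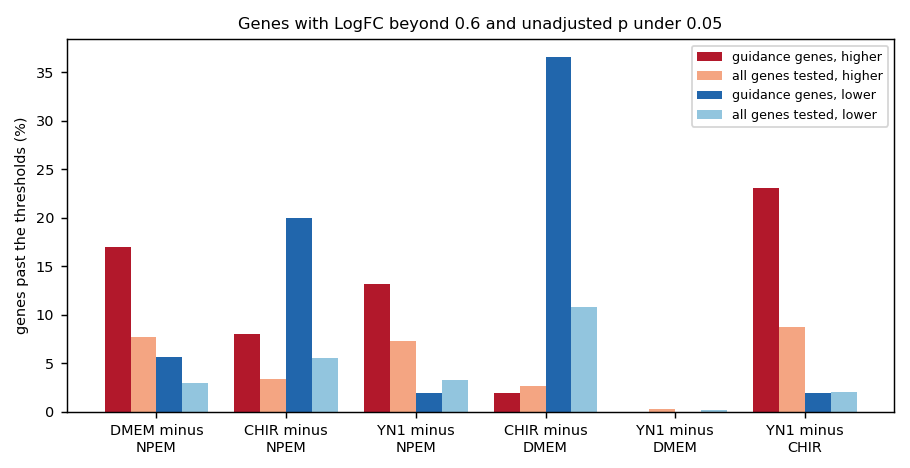
Share of guidance genes and of all genes tested that had a LogFC beyond 0.6 with an unadjusted p under 0.05, by comparison and direction. The largest share is that of guidance genes lower in CHIR than in DMEM (36.5%, against 10.8% of all genes), and none passed in YN1 minus DMEM.

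Other genes of the guidance pathways were taken from 2 lists, of which Hjv and Flrt1 are not in the tables under those names. By the adjusted test 0 genes of the 2 lists passed in any comparison without the block. In CHIR against DMEM, 11 of the 21 other receptors and ligands and 22 of the 25 cytoskeletal and kinase effectors were tested. Past the thresholds of the study, 0 and 2 of these were lower and 0 higher, against 10.8% and 2.61% of all genes. With the block, Rgma, a membrane-anchored repulsive guidance molecule, fell (LogFC = -1.11, blocked adjusted p = 0.0422), as did 4 effectors (Abl1, Ablim1, Adam10 and Fes). Of all genes, 9.44% fell and 3.36% rose with the block, so the 1 call among 11 receptors and ligands is near that share. Rgma did not pass the thresholds of the study without the block. Cdk5r1, an activator of the kinase CDK5, was higher past those thresholds with the block (LogFC = 0.64), as were 602 of 14313 genes. The largest difference was that of Ablim1, an actin-binding protein linked to netrin signaling, which fell in the blocked fit (LogFC = -2.05, SE 0.27, adjusted p = 0.0537, blocked 0.0160). The tyrosine kinase Fes, an effector of semaphorin receptors, fell by 1.31 on the log2 scale (adjusted p = 0.0849, blocked 0.0298). In DMEM against NPEM, Met, the HGF receptor and a partner of plexins, fell in the blocked fit (LogFC = -1.55, adjusted p = 0.300, blocked 0.0388). Crmp1, a mediator of semaphorin signaling, fell too (LogFC = -1.09, blocked adjusted p = 0.0364), but without the block it did not pass the thresholds of the study. Flrt2, an adhesion protein that binds Unc5 receptors, rose (LogFC = 0.69, adjusted p = 0.118, blocked 0.0302). In this comparison 10 receptors and ligands and 23 effectors were tested, and with the block 2.19% of all genes fell and 4.32% rose. In YN1 against CHIR, Ablim1 was higher (LogFC = 2.1, adjusted p = 0.0734, blocked 0.0289), as were 1.11% of all genes with the block. The calls given here were all the blocked calls of the 2 lists in the 6 comparisons.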

How the data were processed

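The authors sequenced poly-A RNA without strand information. Alignment with STAR was to both mm9 and mm10, quantification involved RSEM and Kallisto, and the authors deposited TPM per gene. Versions and the annotation are not given in the sources used here, the labels and the methods differ on the read length, and depth is unknown. The deposited tables also hold the authors' own comparisons (effects, fold changes, p-values and test statistics), which were not used. The design allowed for other units, and TPM were tested as normalized values.

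Values were taken as deposited and transformed to log2(TPM + 1). Genes that reached 1 TPM in 3 or more of the 6 libraries of a comparison were fitted in R 4.3.3 with limma 3.58.1 (lmFit, then eBayes with a trend), and two-sided p-values were adjusted by the Benjamini-Hochberg method over every gene in the fit. Tables were read with version 1.17.8 of data.table. Python 3.11.15, numpy 2.4.6, pandas 2.3.3 and matplotlib 3.10.9 were used for counts, sequence windows and plots. The fit was tested on simulated data. Groups and replicate numbers come from the sample labels, and the library without a number is replicate 1. The replicate numbers are shared by the groups in the labels, and the methods describe 3 independent NPC preparations. Over 15680 genes, deviations from the group mean in same-numbered libraries correlated at 0.349 to 0.689 in 18 pairs, so the number was also fitted as a block. In the 36 pairs with different numbers the correlations were -0.452 to -0.0698. Deviations within a group sum to 0, so these negative values largely follow from the positive ones and are not separate evidence of pairing. Other alternatives were 1 fit over all 4 groups, with and without the block, quantile normalization, no filter, a mean of at least 5 TPM, a pseudocount of 0.1, no trend, and leaving out each library. Leaving out a replicate number in the blocked fit was added after seeing the data.

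Named genes are members past either rule in any comparison or with the highest mean TPM of a family. Other members given with values, among them Nrp2, Robo1, Ephb1, Plxna4 and Sema3a (which passed only with the block), were chosen after their values were seen. Another gene list and 1 marker gene are not reported here. The members and lists were chosen with earlier results of these data known. Gene positions and promoter windows come from RefSeq on GRCm38.p6, and exon overlaps from GENCODE.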

Additional observations from a re-analysis of the deposited data

How the results depend on the processing

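Counts of guidance genes by the adjusted test moved with the model. For DMEM against NPEM the count of 1 became 7 with the replicate block, 2 with all 4 groups in one fit, 9 with all 4 groups and the block, and 0 without the filter on low values. The count over all genes moved too, from 64 to 933, 237, 2025 and 5. For CHIR against NPEM the count of 1 became 5, 3, 16 and 0 under these settings, and for YN1 against NPEM 2, 2, 13 and 0. Over all genes, 53 became 233, 187, 1506 and 1, and 33 became 108, 284, 2374 and 1. For CHIR against DMEM the count of 0 became 20 with the block, 5 with all 4 groups and 22 with both, and for YN1 against CHIR 3, 3 and 20. Over all genes, 36 became 1832, 437 and 3503, and 1 became 223, 242 and 3002. With 1 library left out and no block, the adjusted counts ran from 0 to 3 for CHIR against NPEM and were 0 in the other comparisons. For CHIR against NPEM the count over all genes ran from 2 to 192. With 1 replicate number left out of the blocked fit the counts of members ran from 0 to 8 (DMEM against NPEM), 0 to 6 (CHIR against NPEM), 0 to 3 (YN1 against NPEM), 0 to 19 (CHIR against DMEM) and 6 to 9 (YN1 against CHIR), and were 0 for YN1 against DMEM. Those over all genes ran from 52 to 708, 2 to 283, 29 to 279, 0 to 1383 and 182 to 593 in the same order. By the thresholds of the study, the count for DMEM against NPEM was 12, and 7 with all 4 groups or without the filter, that for YN1 against NPEM was 8, 14 with the block and 17 with all 4 groups and the block, that for CHIR against DMEM was 20, and 9 under quantile normalization, and that for YN1 against CHIR was 13, and 20 in either fit with the block. Over all genes, DMEM against NPEM gave 1523, 1442 with all 4 groups and 1440 without the filter. YN1 against NPEM gave 1509, 2040 and 2192. CHIR against DMEM gave 1918 and 1521, and YN1 against CHIR 1534, 2303 and 2298. Leaving out 1 library or replicate number gave 9 to 19 for DMEM against NPEM, 9 to 18 for CHIR against NPEM, 8 to 15 for YN1 against NPEM, 11 to 24 for CHIR against DMEM, 0 to 1 for YN1 against DMEM and 9 to 25 for YN1 against CHIR. The ranges over all genes were 1236 to 2109, 873 to 1856, 1251 to 2266, 1227 to 2642, 71 to 357 and 918 to 2874. Of 1110 LogFC values under the alternatives for 67 gene and comparison pairs, 26 lost and 149 gained the adjusted call, and 0 changed sign. The count of 0 says little on how firm the signs are. The pairs were chosen for passing either rule in the same data. The block, the fits over all 4 groups, the filters and the missing trend leave a LogFC as it was, so its sign could not change there. The block changed no other adjusted call of a named guidance gene than those given beside the results. By the thresholds of the study, the calls lost with the block were those of Ntn4 and Sema5a in DMEM against NPEM. The cause of these shifts was not tested. Without read numbers, the precision of low genes is unknown.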
